A study of Mus musculus with 14 samples.

Results

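The cytochrome P450 (CYP) genes of families 1 to 4 were examined in mouse liver. Members were the protein-coding genes of the liver table whose name begins with Cyp, a family number from 1 to 4, a subfamily letter and a gene number. By this rule 80 of the 54532 genes were members, chosen by name and not by their values. They lie in clusters, with 18 members on chromosome 4, 15 on chromosome 7 and 15 on chromosome 19 (GRCm38).

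P450 enzymes are heme proteins of the endoplasmic reticulum that oxidize drugs, steroids, fatty acids and pollutants, with electrons from NADPH passed on by P450 oxidoreductase (Por). Families 1 to 3 mainly handle foreign compounds and steroids, and family 4 mainly hydroxylates fatty acids and eicosanoids. Hepatocytes, above all those around the central vein, carry most of the enzymes. Many members are induced through the receptors AhR, CAR, PXR and PPARα, many fall when the liver mounts an acute phase response, and a set of mouse members is made mainly in livers of a single sex, under control of the secretion pattern of growth hormone.

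The livers came from a mouse model of pancreatic cancer in which 100000 KPCY cells, a mouse pancreatic tumor cell line, were placed in the tail of the pancreas, and livers were taken at 20 days. There were 2 WT livers, 3 livers of TRPV4-KO mice and 3 livers of WT mice given the TRPV4 antagonist GSK219 (GSK2193874) by gavage at 10 mg/kg every 24 hours, all from mice of 8 to 12 weeks. The WT mice carried floxed Piezo1 (Piezo1 fl/fl) without deletion, the TRPV4-KO was global, and the injected tumor cells of every group kept functional TRPV4. Whether the WT mice were given the carrier of GSK219 by gavage is not stated in the sources used here, and 1 label of the drug group spells its name GSRK219.

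RNA-Seq counts summed to between 15567031 and 17395299 per liver. Trpv4, the deleted gene, had 43 and 53 counts in WT livers 1 and 2, 15, 5 and 23 in TRPV4-KO livers 1 to 3, and 20, 30 and 36 in GSK219 livers 1 to 3. It was lower in the TRPV4-KO than in the WT livers without overlap, and the difference did not pass edgeR's quasi-likelihood test (log2 fold change 1.71, adjusted p = 0.161). A count over the whole gene does not show which exons the reads cover, so the deletion itself was not checked. The labels give no sex. The study's methods state that mice of both sexes were used, matched for sex and age within an experiment. They report that no differences specific to sex were seen. Reads of the X-linked transcript Xist marked WT 1, TRPV4-KO 3 and GSK219 3, and reads of the Y-linked genes Ddx3y, Eif2s3y, Kdm5d and Uty marked the other 5 livers. The former are called livers with Xist reads below, and the latter livers with Y-linked reads. The labelled tissue carried its markers, since the 6 hepatocyte markers (the members Cyp2c29 and Cyp2e1, with Alb, Apoa1, Ttr and Serpina1c) together reached 47420 to 60951 CPM (counts scaled to library size, the usual CPM) in WT, 72463 to 92321 in TRPV4-KO and 71331 to 80808 in GSK219 livers.

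Of the 80 members, 8 had no count in any liver (Cyp2b23, Cyp2c65, Cyp2c66, Cyp2j7, Cyp2j12, Cyp2w1, Cyp4a29 and Cyp4x1), and 11 had so few that they were not tested, with at most 17 counts in a liver. The other 61 were tested, although a member that is high in 1 group alone passes such a filter through that group. By level, set per length as RPKM (counts per kilobase of gene, scaled to library size as CPM is), 20 members averaged over 100, another 25 between 10 and 100, 12 between 1 and 10, and 23 stood at or under 1. The level of a transcript in whole liver cannot tell fewer hepatocytes from less RNA per hepatocyte.

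Cyp2e1, the enzyme that oxidizes ethanol and acetone (chr7:140763739-140774987), had the highest level of the family in every liver. Its level was 2582 and 2258 RPKM in WT livers 1 and 2, 3792, 3204 and 2071 in TRPV4-KO livers 1 to 3, and 3219.5, 3531 and 2126 in GSK219 livers 1 to 3. The livers with Xist reads of the TRPV4-KO and GSK219 groups were thus the lowest of the 8, and the groups overlapped. Cyp2e1 alone took from 19.9% to 34.5% of all member counts of a liver. The 8 members with the highest mean level were Cyp2e1, Cyp2d26 (553 ± 111 RPKM, SD, n = 8 livers), the coumarin hydroxylase Cyp2a5 (541 ± 157), Cyp2f2 (538 ± 202), Cyp2c29 (420.2 ± 124), Cyp2d10 (384 ± 40.4), the steroid 16α-hydroxylase Cyp2d9 (333 ± 272) and the caffeine-oxidizing Cyp1a2 (326 ± 53.5). From Cyp2d26 to Cyp1a2, neighbors in this order differed by less than the larger of their SDs. Among the 7 after Cyp2e1, Cyp2d9 had the largest SD, with low levels in the 3 livers with Xist reads.

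**Figure D1:**
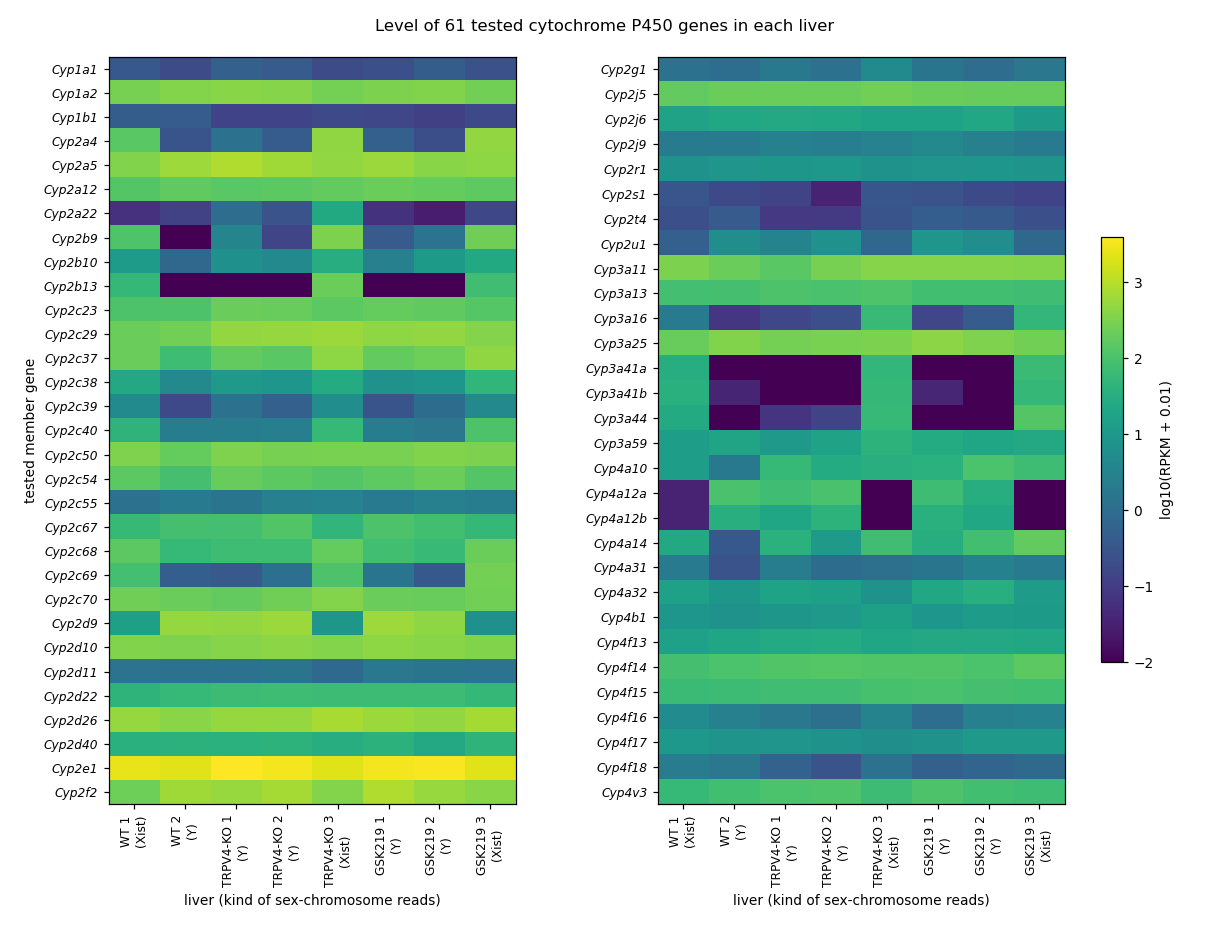
Level of each of the 61 tested members (rows, in 2 panels) in each of the 8 livers (columns, with the kind of sex-chromosome reads in brackets), as color on the scale log10(RPKM + 0.01). Most rows keep their color across the livers, whereas rows such as Cyp2b13, Cyp3a41a and Cyp4a12a switch between the 3 livers with Xist reads and the 5 with Y-linked reads.

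The largest fitted differences among members were those between the kinds of sex-chromosome reads. With group as a term in the fit, 13 members were higher in the livers with Xist reads, against 1.05% of all genes tested, and 4 were lower, against 0.86%, where a call needed an absolute log2 fold change over 1 and an adjusted p under 0.05 (edgeR's quasi-likelihood test). The 13 were Cyp2a4, Cyp2b9, Cyp2b13, Cyp2c37, Cyp2c38, Cyp2c39, Cyp2c40, Cyp2c68, Cyp2c69, Cyp3a16, Cyp3a41a, Cyp3a41b and Cyp3a44, and the 4 were Cyp2d9, Cyp2u1, Cyp4a12a and Cyp4a12b. Without overlap of the livers, 14 members were higher and 9 lower with Xist reads, against 6.24% and 6.08% of all genes. Of the 12 members listed as female-biased from general knowledge, 10 were among the 13 and all 12 were higher at an unadjusted p under 0.05, as were 13.4% of all genes. All 4 members listed as male-biased were lower, where 8.73% of all genes had such a p in that direction. The lists were written with earlier results of these data known, and are not independent evidence. The 13 took 9.88%, 16.8% and 18.8% of the member counts of the livers with Xist reads, and 1.35% to 2.41% in the others.

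**Figure D2:**
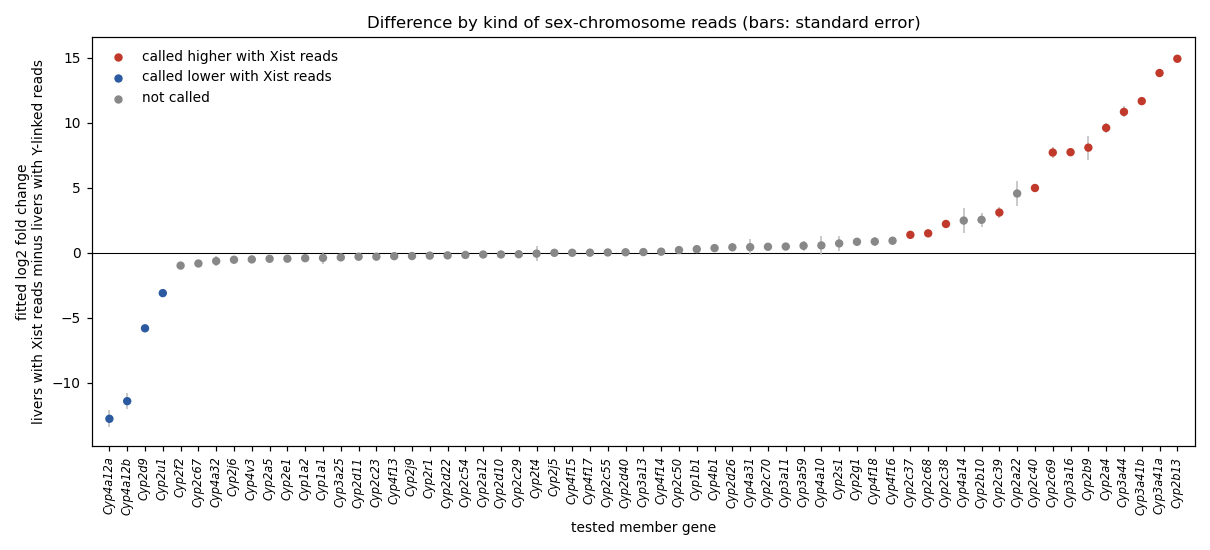
Fitted log2 fold change of each tested member between the livers with Xist reads (n = 3) and with Y-linked reads (n = 5), sorted, with bars of 1 standard error. The 13 members called higher (red) and the 4 called lower (blue) lie toward the ends, and of the 44 members not called (gray) 41 lie between -1 and 1, the others being Cyp2a22, Cyp2b10 and Cyp4a14. For members at or near 0 counts in either kind the plotted value depends on the fit and is no bound.

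Cyp2a4 and Cyp2a5 both lie in the Cyp2 gene cluster on chromosome 7 and hydroxylate testosterone and coumarin, respectively. Their promoters are shown because the genes behaved differently although the 250 bases before their RefSeq start sites were 97.6% identical when aligned, with 4 substitutions and 2 unpaired end bases. The bases from 250 to 41 before the start sites (RefSeq, GRCm38.p6, plus strand) lie at chr7:26306942-26307151 for Cyp2a4 and chr7:26835089-26835298 for Cyp2a5, and capitals mark the substituted bases.
Cyp2a4: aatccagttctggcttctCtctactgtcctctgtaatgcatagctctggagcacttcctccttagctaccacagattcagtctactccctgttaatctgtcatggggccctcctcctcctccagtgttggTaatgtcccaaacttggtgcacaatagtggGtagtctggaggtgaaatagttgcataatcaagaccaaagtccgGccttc
Cyp2a5: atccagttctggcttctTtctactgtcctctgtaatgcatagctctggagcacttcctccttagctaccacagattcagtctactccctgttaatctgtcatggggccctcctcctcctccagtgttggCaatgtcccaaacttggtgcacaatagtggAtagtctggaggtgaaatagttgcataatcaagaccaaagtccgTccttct
Cyp2a4 stood at 149 RPKM in WT 1, at 463 in TRPV4-KO 3 and at 484 in GSK219 3, and at 0.268, 1.24, 0.41, 0.507 and 0.209 in WT 2, TRPV4-KO 1 and 2 and GSK219 1 and 2. All 3 livers with Xist reads thus lay far above the other 5 (log2 fold change 9.60, SE 0.382, adjusted p = 3.28e-05). Cyp2a5 ranged from 343 to 498 RPKM in the livers with Xist reads and from 403 to 844 in the others, which overlapped (log2 fold change -0.47, adjusted p = 0.171). Within a liver, Cyp2a4 reached 0.435, 0.929 and 1.1 times the level of Cyp2a5 where Xist reads were present, and at most 0.00147 times elsewhere. Of the stretches of 100 bases in Cyp2a4 transcripts, 11.2% also occurred in Cyp2a5, so most reads could be told apart.

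Cyp2b9 and Cyp2b13, testosterone hydroxylases of the Cyp2b cluster, are shown as a pair with close promoters in which both members were higher with Xist reads, since their 250 bases differed by 2 substitutions (99.2% identical). The same stretch before the start sites lies on the plus strand at chr7:26173159-26173368 for Cyp2b9 and chr7:26061245-26061454 for Cyp2b13, with capitals again at the substituted bases.
Cyp2b9: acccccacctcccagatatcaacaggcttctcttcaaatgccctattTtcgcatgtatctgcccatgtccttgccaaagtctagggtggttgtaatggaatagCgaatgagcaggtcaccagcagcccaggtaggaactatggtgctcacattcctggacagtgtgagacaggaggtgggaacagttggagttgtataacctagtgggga
Cyp2b13: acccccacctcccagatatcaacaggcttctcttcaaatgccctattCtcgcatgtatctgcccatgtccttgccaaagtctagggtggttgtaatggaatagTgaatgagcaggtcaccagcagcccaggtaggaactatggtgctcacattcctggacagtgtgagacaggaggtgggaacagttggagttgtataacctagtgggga
Cyp2b13 had 1634, 6946 and 2421 counts in the livers with Xist reads of WT, TRPV4-KO and GSK219, and no count in any of the other 5. Against a floor of 3 counts per liver, this was at least 1163-fold higher with Xist reads. Cyp2b9 had 3465, 10127 and 7720 counts in the livers with Xist reads, 0 in WT 2, 107 and 4 in TRPV4-KO 1 and 2, and 12 and 41 in GSK219 1 and 2. The kinds did not overlap, yet among the livers with Y-linked reads Cyp2b9 ranged from 0 to 107 counts while Cyp2b13 stayed at 0 (Cyp2b9 log2 fold change 8.08, SE 0.918, adjusted p = 0.014). This call of Cyp2b9 was lost, with an adjusted p from 0.0516 to 0.133, when WT 1, WT 2, TRPV4-KO 3, GSK219 1 or GSK219 3 was left out.

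**Figure D3:**
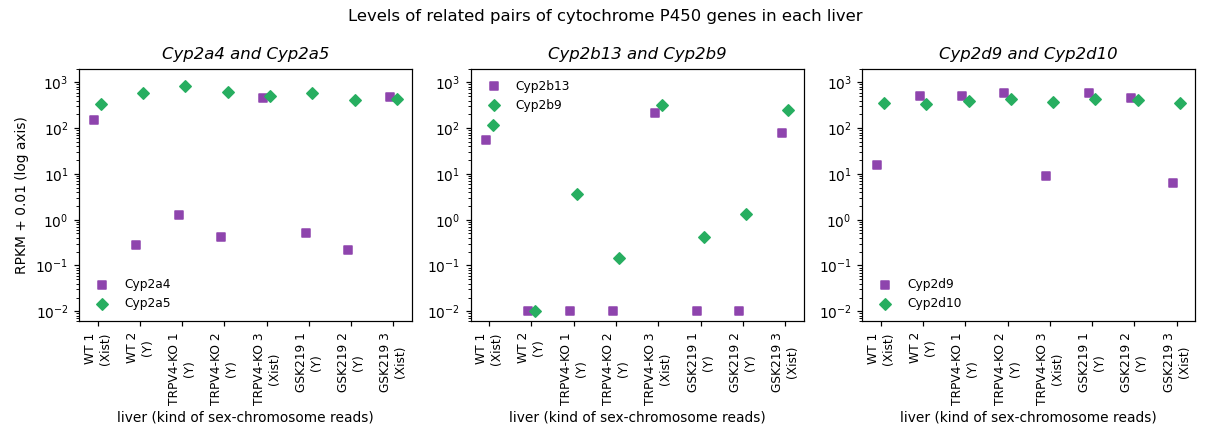
Levels (RPKM + 0.01, log axis) of Cyp2a4 with Cyp2a5, Cyp2b13 with Cyp2b9, and Cyp2d9 with Cyp2d10 in each of the 8 livers. Cyp2a4, Cyp2b13 and Cyp2b9 are high in the 3 livers with Xist reads and Cyp2d9 is low there, whereas Cyp2a5 and Cyp2d10 stay between 331 and 844 RPKM in all 8.

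In the Cyp3a cluster, whose enzymes hydroxylate steroids and many drugs, Cyp3a41a had 1036, 1807 and 2319 counts in the livers with Xist reads of WT, TRPV4-KO and GSK219 and none elsewhere, at least 551-fold higher. Cyp3a41b had 1193, 1945 and 1891 counts there and 2 in all other livers together, a ratio of 4053 with a 95% counting interval from 1121 to 33473. Of the 100-base stretches of Cyp3a41a, 90.8% occurred in other genes, nearly all in Cyp3a41b, so the counts of this pair may be split between the copies by the counting and are uncertain for each copy. Cyp3a44 had 830, 1919 and 4138 counts with Xist reads and 0 to 4 without, and shared 5.37% of its stretches. Cyp3a16 had 58, 1871 and 1445 counts with Xist reads and 2 to 12 without. WT 1 therefore stood apart from the other livers with Xist reads at Cyp3a16, while remaining above all livers with Y-linked reads. The main drug-metabolizing members of the cluster, Cyp3a11 (log2 fold change 0.47, adjusted p = 0.276) and Cyp3a25 (-0.36, adjusted p = 0.271), overlapped between the kinds.

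In the Cyp2c cluster on chromosome 19, Cyp2c69 had 2434, 3304 and 7857 counts in the livers with Xist reads and 10 to 42 in the others. Cyp2c40 had 1436, 1997 and 3707 against 55 to 78. Cyp2c68 differed less, at 157, 188 and 215 RPKM against 55.9 to 79.1, and Cyp2c38 stood at 24.1 to 48.8 against 4.25 to 11 RPKM. No liver overlapped in these 4 genes. Cyp2c37 was called (log2 fold change 1.37, adjusted p = 0.000678) although its livers overlapped, since WT 1 had 212 RPKM and GSK219 2, with Y-linked reads, had 234. Cyp2c39, with 128 to 175 counts against 5 to 36, was the lowest of the called Cyp2c genes. Its call was lost when TRPV4-KO 3 or GSK219 3 was left out, and that of Cyp2c37 without group as a term. Cyp2c40 and Cyp2c69 shared 34.4% and 35.4% of their 100-base stretches with other genes, mostly with each other, and their separate counts are uncertain to that extent.

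The letters CAAAGTCCA, a known recognition sequence of the hepatocyte nuclear factor HNF4α, were searched on both strands of the 250 bases before RefSeq start sites. They occurred in 0.384% of 32851 promoters, and in 10 of the 72 promoters found for 65 of the 80 members. These included 6 of the 13 members higher with Xist reads, and also Cyp2c67, Cyp2c70 and Cyp3a11, which were tested and not called. The stretches are printed for the 6 with 10 bases on each side and the motif in capitals, because their flanks show 2 groups of related promoters rather than 6 separate occurrences. All are on the minus strand of GRCm38.p6 and hold the motif 45, 77 and 75 bases before the start site for Cyp2c40 (chr19:39812841-39812869), Cyp2c68 (chr19:39741160-39741188) and Cyp2c69 (chr19:39886826-39886854), and 99, 95 and 95 bases before it for Cyp3a16 (chr5:145469804-145469832), Cyp3a41a (chr5:145720213-145720241) and Cyp3a41b (chr5:145584807-145584835).
Cyp2c40: atcattgagaCAAAGTCCAtttggaagag
Cyp2c68: atcattgaaaCAAAGTCCAattggaagag
Cyp2c69: atcattgagaCAAAGTCCAtttggaagag
Cyp3a16: aagagacgacCAAAGTCCAggtgatgcag
Cyp3a41a: aagagacgacCAAAGTCCAggtgatgcag
Cyp3a41b: aagagacgacCAAAGTCCAggtgatgcag
The letters TTCNNNGAA, the core bound by STAT5, were found in 4 of the 72 member promoters, none of them among the 13, and in 7.02% of all promoters. A match or its absence in this window is a description of the letters only.

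On the other side, Cyp2d9 stood at 15.4, 9.1 and 6.41 RPKM in the livers with Xist reads of WT, TRPV4-KO and GSK219, and between 449 and 598 in the other 5. Cyp2d10, of the same subfamily, ranged from 331 to 441 RPKM over all 8 livers. Cyp2d9 was thus separated by kind (log2 fold change -5.81, SE 0.29, adjusted p = 3.92e-05), and Cyp2d10 overlapped (log2 fold change -0.14, adjusted p = 0.474). Cyp4a12a, a fatty acid ω-hydroxylase that makes the eicosanoid 20-HETE, had 4050 counts in WT 2, 2918 and 3748 in TRPV4-KO 1 and 2, 2788 and 1246 in GSK219 1 and 2, and 1 count in the 3 livers with Xist reads together. The ratio was 9152, with a 95% counting interval from 1642 to 361499.7. Cyp4a12b, which shares 36.2% of its 100-base stretches with Cyp4a12a, also had 1 count in the livers with Xist reads and 751 to 1513 in the others. Cyp2u1, a fatty acid hydroxylase with a much lower level, stood at 0.519 to 0.74 RPKM with Xist reads and 3.17 to 8.2 without (log2 fold change -3.11, adjusted p = 0.00314). Below the fold threshold, Cyp2f2 (-0.99), Cyp2c67 (-0.83) and Cyp2j6 (-0.54) were also lower with Xist reads at adjusted p values of 0.0317, 0.026 and 0.0414. The fitted median over the 13 higher members was 7.73 on the log2 scale, also with genes at or near 0 set at their bound or ratio, and over the 4 lower members it was -8.61, or -8.83 in that way. Of the genes of other cells, the 8 macrophage genes summed to 851 to 1576 CPM with Xist reads and 376 to 1411 without. These overlapped, although within each group the liver with Xist reads had the highest sum. All 8 were fitted higher with Xist reads, 7 at an unadjusted p under 0.05, where 13.4% of all genes were. At such a p, 5 of 7 endothelial, 5 of 8 stellate and fibroblast and 5 of 12 acute phase genes were higher. So were 2 of 8 lymphocyte and 0 of 9 neutrophil genes. Endothelial sums did not overlap, at 549 to 619 CPM with Xist reads and 352 to 540 without. Of the 8 macrophage genes 1 was called (Vsig4, log2 fold change 1.05, adjusted p = 0.0446). Of 6 ductal and tumor epithelial genes 1 was called (Muc1, 1.75, adjusted p = 0.0383), and 1 other was lower at an unadjusted p under 0.05. Their part in the result was not tested.

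The comparison of WT with TRPV4-KO livers asked which P450 genes differ in the liver of a tumor-bearing mouse without TRPV4. No member was higher in WT, against 0.152% of all genes tested, and 1 member was lower, against 0.112%. At an unadjusted p under 0.05, 2 members were higher, against 9.5% of all genes, and 7 lower, against 7.61%, and DESeq2 called 1 higher (Cyp1b1) and 2 lower (Cyp2c29 and Cyp2a22), beside 374 higher and 121 lower of all 15118 genes. The fitted difference was below 0 for 51 of the 61 members, with a median log2 fold change of -0.28, beside a median of -0.01 over all genes. Groups did not overlap for 2 members with WT higher, against 17.7% of all genes, and for 11 with WT lower, against 15.5%, so the share of members without overlap was near or under that of all genes.

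Cyp2c29, an arachidonic acid epoxygenase and retinoic acid hydroxylase induced through CAR (chr19:39269405-39330713, plus strand), was the member called lower in WT. Its level was 224 and 261 RPKM in WT livers 1 and 2, 501, 511 and 566 in TRPV4-KO livers 1 to 3, and 440.04, 489.7 and 368 in GSK219 livers 1 to 3. Both WT livers lay below all other livers, and the group means were 243 ± 26.4 (SD, n = 2) in WT, 526 ± 34.7 (n = 3) in TRPV4-KO and 433 ± 61 (n = 3) in GSK219. The log2 fold change of WT over TRPV4-KO was -1.12 (SE 0.163, adjusted p = 0.0411). TRPV4-KO was 2.53-fold above WT between the livers with Xist reads and 1.94-fold between those with Y-linked reads. The call was lost when WT 1, WT 2, TRPV4-KO 1, TRPV4-KO 2, GSK219 1 or GSK219 2 was left out, at adjusted p values of 0.398, 0.148, 0.166, 0.165, 0.0734 and 0.0728, and with only the 2 groups compared (0.123), with log2 fold changes from -0.997 to -1.22. With the 5 livers with Y-linked reads alone it was -0.95 (adjusted p = 0.0268), under the fold threshold.

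Another 6 members had a fitted difference below 0 at an unadjusted p under 0.05, and none of them passed the adjusted threshold. Cyp2c23, an epoxygenase of arachidonic acid (chr19:44005022-44029208), stood at 111 and 109 RPKM in WT, at 205, 203 and 152 in TRPV4-KO and at 191, 172 and 134 in GSK219 livers. WT did not overlap with either group, and the difference from TRPV4-KO did not pass (log2 fold change -0.76, adjusted p = 0.135). With the kind of sex-chromosome reads as a term it was -0.69 (adjusted p = 0.0421), under the fold threshold. Cyp2d22, related to human CYP2D6, stood at 44.5 and 56.2 RPKM in WT against 67.6 to 71.5 in TRPV4-KO livers (log2 fold change -0.47, adjusted p = 0.192). Cyp3a13 stood at 86.2 and 86.7 RPKM in WT against 97.8 to 116 (log2 fold change -0.31, adjusted p = 0.223). The other 3 members with an unadjusted p under 0.05 were Cyp4f13, whose groups overlapped (-0.43, adjusted p = 0.24), Cyp4a10, described with the PPARα targets, and Cyp2a22. Cyp2a22 had 3 and 7 counts in WT livers, 54, 14 and 1515 in TRPV4-KO livers and 3, 1 and 9 in GSK219 livers. TRPV4-KO lay above WT without overlap, with most of its counts in TRPV4-KO 3 (log2 fold change -6.65, SE 2.54, adjusted p = 0.268).

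A fitted difference above 0 at an unadjusted p under 0.05 was found for 2 members of low level, and neither passed the adjusted threshold. Cyp1b1, which oxidizes estradiol and polycyclic hydrocarbons and is known more from stellate and other non-parenchymal cells than from hepatocytes (chr17:79706953-79715041, minus strand), had 37 and 36 counts in WT, 10, 10 and 14 in TRPV4-KO and 12, 9 and 14 in GSK219 livers. Cyp4f18, which breaks down leukotriene B4 and is known from neutrophils and other myeloid cells, had 69 and 53 counts in WT, 17, 8 and 39 in TRPV4-KO and 15, 20 and 27 in GSK219 livers. In both genes the WT livers lay above all 6 others. The log2 fold changes against TRPV4-KO were 1.64 (adjusted p = 0.103) for Cyp1b1 and 1.502 (adjusted p = 0.213) for Cyp4f18. Cyp1b1 passed with the kind of reads as a term (1.60, adjusted p = 0.046), and both passed when TRPV4-KO 3 was left out (1.77 and 2.20, adjusted p = 0.0397 and 0.0335). The next members by p with WT higher, Cyp4f16 (0.89, adjusted p = 0.451) and Cyp2t4 (1.03, adjusted p = 0.501), overlapped between the groups.

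**Figure D4:**
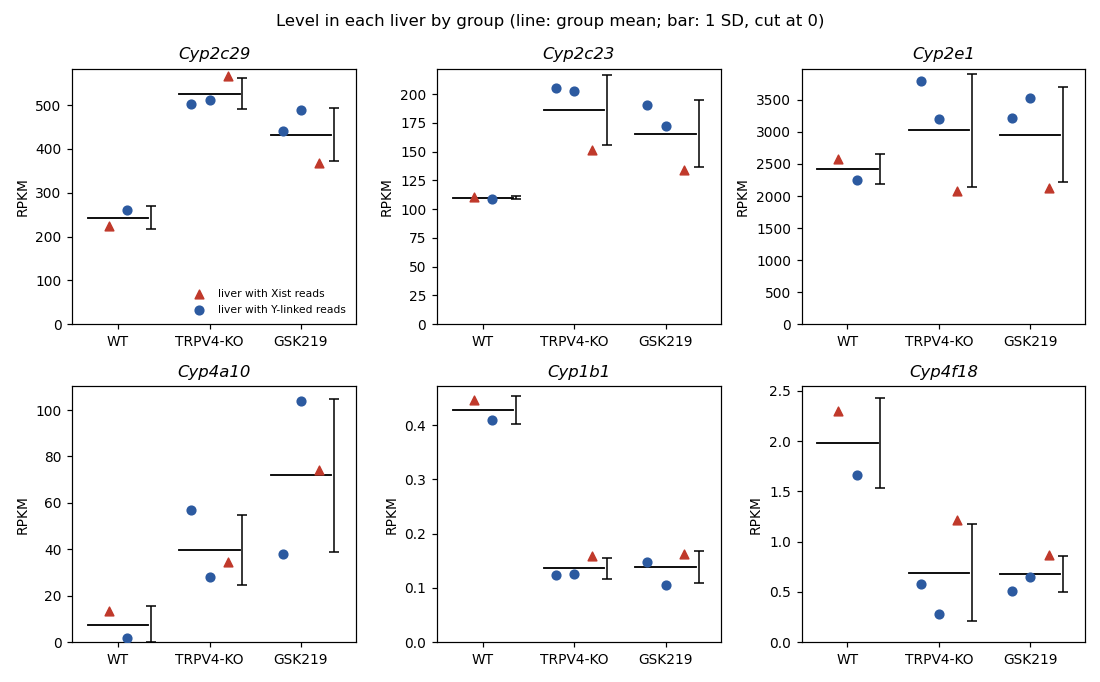
Level (RPKM) of Cyp2c29, Cyp2c23, Cyp2e1, Cyp4a10, Cyp1b1 and Cyp4f18 in each liver by group, with the group mean as a line and 1 SD as a bar cut at 0, and red triangles for livers with Xist reads. Both WT livers lie below all others for Cyp2c29, Cyp2c23 and Cyp4a10 and above all others for Cyp1b1 and Cyp4f18, and the groups overlap for Cyp2e1.

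With the kind of sex-chromosome reads as a term, 4 members had lower levels in WT than with TRPV4-KO, against 0.483% of all genes, and 1 was higher (Cyp1b1), against 1.67%. At an unadjusted p under 0.05 in this fit, 20 of 61 members were lower and 2 higher. Of all 15118 genes, 1422 were lower and 1812 higher in this way. The 4 members called lower were Cyp2c29, Cyp2b13 (log2 fold change -1.98, adjusted p = 0.0285), Cyp2c37 (-1.11, adjusted p = 0.02) and Cyp3a16 (-4.69, adjusted p = 0.00667). For Cyp2b13 and Cyp3a16 this difference rests on 1 liver per group, since 58 counts of Cyp3a16 in WT 1 stood against 1871 in TRPV4-KO 3, and the livers with Y-linked reads had at most 12. Cyp2c37 was 2.08-fold higher in TRPV4-KO than in WT between the livers with Xist reads and 2.30-fold between those with Y-linked reads. Within both kinds, 32 of 61 members were lower in WT than in TRPV4-KO and 6 were higher, and of the 44 members not called by kind, 22 were lower and 4 higher. Of 14238 genes with at least 80 counts over the 8 livers, 31.9% were lower and 31.0% higher in this way.

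The comparison of WT with GSK219 livers, which shares the WT livers with the one above, asked the same of a drug that blocks the channel. No member was called in either direction by edgeR, nor was any other gene (0% higher and 0% lower of 15118), while DESeq2 called 64 genes higher and 10 lower. At an unadjusted p under 0.05, 2 members were higher in WT, against 5.87% of all genes, and 5 lower, against 2.34%, and DESeq2 called 1 of them lower, Cyp4a10. The fitted difference was below 0 for 48 of 61 members, with a median log2 fold change of -0.34, beside a median of 0.00 over all genes. Groups did not overlap for 3 members with WT higher, against 15.6% of all genes, and for 12 with WT lower, against 11.7%.

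The 5 members below 0 at an unadjusted p under 0.05 were Cyp2c29 (log2 fold change -0.83, adjusted p = 0.391), Cyp2c23 (-0.59, adjusted p = 0.539), Cyp2d22 (-0.36, adjusted p = 0.598), Cyp4f15 (-0.38, adjusted p = 0.566) and Cyp4a10 (-3.25, adjusted p = 0.539). Cyp2d22 overlapped between the groups and the other 4 did not. Cyp4f15 stood at 65.9 and 70.4 RPKM in WT and at 78.7 to 96.3 in GSK219 livers. Cyp1b1 (1.61, adjusted p = 0.391) and Cyp4f18 (1.54, adjusted p = 0.539) were the 2 with WT higher, and Cyp3a13, at 77.5 to 79.3 RPKM in GSK219 livers, lay just under WT without overlap (0.14, adjusted p = 0.832). Cyp3a11 lay at 377, 387 and 368 RPKM in GSK219 livers, above both WT livers at 317 and 204 (log2 fold change -0.53, adjusted p = 0.77). With the kind of reads as a term, Cyp3a16 was lower in WT (-4.55, adjusted p = 0.0481), again on 1 liver with Xist reads per group, against 0.0132% of all genes. At an unadjusted p under 0.05 in that fit, 21 of 61 members were lower and 2 higher. Of all 15118 genes, 564 were lower and 1182 higher in this way. Within both kinds, 32 of 61 members were lower in WT than in GSK219 and 8 were higher, beside 28.7% and 30.1% of all genes with at least 80 counts.

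**Figure D5:**
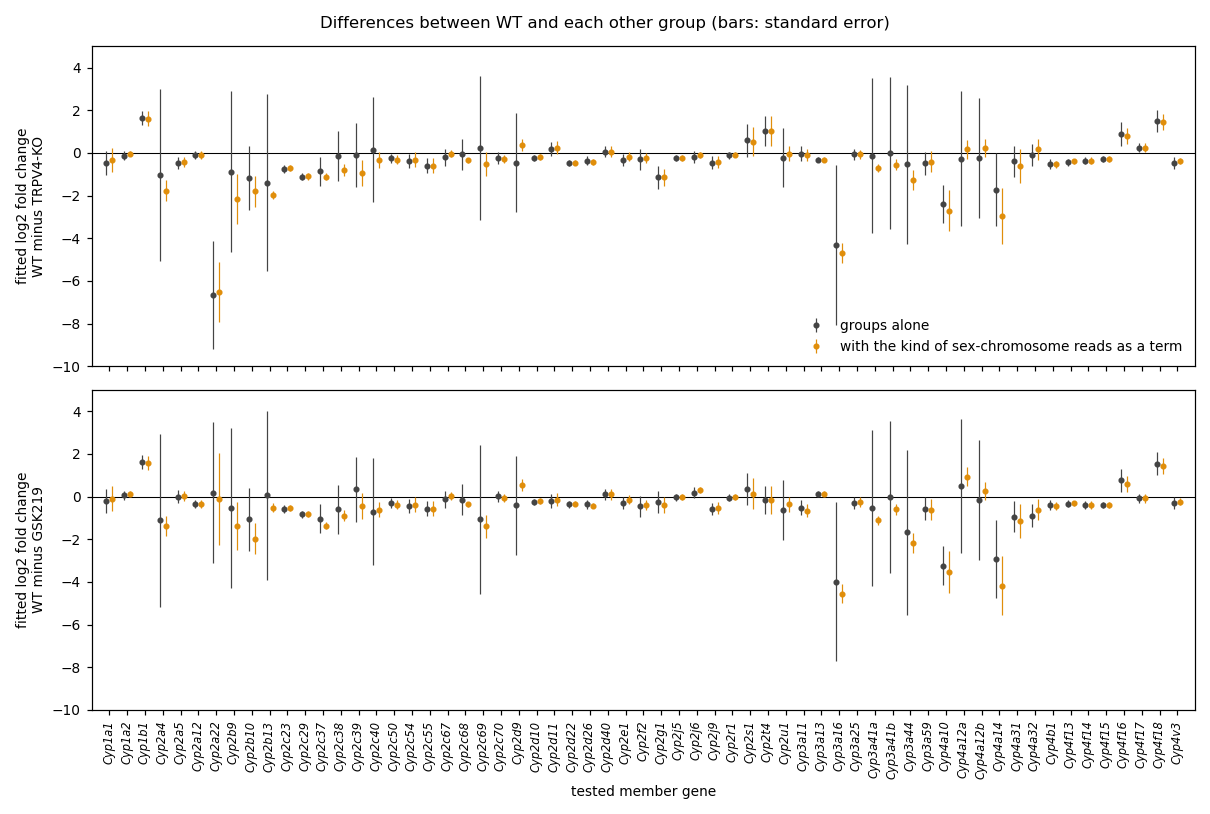
Fitted log2 fold change of the 61 tested members for WT minus TRPV4-KO (top) and WT minus GSK219 (bottom), with bars of 1 standard error, for the groups alone (dark) and with the kind of sex-chromosome reads as a term (orange). Most members lie somewhat below 0 in both panels, which share the WT livers, and the bars of members such as Cyp2a4 and Cyp3a41a shorten with the term.

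All members together took 1.83% of the counts in each of WT livers 1 and 2, 2.24%, 2.25% and 2.23% in TRPV4-KO livers 1 to 3 and 2.39%, 2.38% and 2.24% in GSK219 livers 1 to 3. The 2 WT livers were the lowest of the 8. This was a description of shares, with the 2 WT livers in both comparisons.

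Members were also listed by the receptor that induces them. The 5 CAR targets (Cyp2a5, Cyp2b10, Cyp2c29, Cyp2c37 and Cyp2c55) had fitted differences below 0 in all 5 against TRPV4-KO. Against GSK219, all 5 were below 0, but Cyp2a5 only at -0.0039, and 0.02 with the kind of reads as a term. The medians were -0.85 and -0.83, and Cyp2c29 against TRPV4-KO was the 1 call. Cyp2b10, the classic CAR target, had 394 counts in WT 1 and 28 in WT 2, 213, 139 and 1131 in TRPV4-KO livers and 91, 398 and 873 in GSK219 livers, so that its groups overlapped (log2 fold change -1.18, adjusted p = 0.748 against TRPV4-KO). Within each kind of reads, with 1 WT liver in each, WT was the lowest. TRPV4-KO was 2.69-fold above WT with Xist reads and 6.89-fold with Y-linked reads, and GSK219 was 2.14-fold and 9.12-fold above it. With the kind of reads as a term, Cyp2b10 was called in neither comparison.

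The 4 PPARα targets were below 0 in both comparisons, with medians of -1.05 and -1.94, and none was called by edgeR (1 at an unadjusted p under 0.05 in each, Cyp4a10). With the kind of reads as a term the medians were -1.65 and -2.34, and Cyp4a32 turned to 0.16 against TRPV4-KO. Between the livers with Xist reads, TRPV4-KO stood at 0.585 times WT for Cyp4a31 and 0.474 times for Cyp4a32. Cyp4a10, a fatty acid ω-hydroxylase (chr4:115518264-115533649), stood at 13.3 and 1.82 RPKM in WT livers, 56.7, 27.9 and 34.5 in TRPV4-KO livers and 38, 104 and 74 in GSK219 livers. WT lay below both groups without overlap (log2 fold change -2.39 and -3.25, adjusted p = 0.243 and 0.539). Against GSK219 it was -5.30 without WT 1 and -2.44 without WT 2. Cyp4a14 stood at 25.1 and 0.336 RPKM in WT, 37.8, 10.5 and 77.7 in TRPV4-KO and 30.9, 82.2 and 176 in GSK219 livers, and WT overlapped with TRPV4-KO. WT 2 held the lowest value of both genes, and also of Cyp4a31 and Cyp2b10.

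The 3 AhR targets included Cyp1b1 beside Cyp1a2, at 282 and 356 RPKM in WT, 265 to 397 in TRPV4-KO and 258 to 351 in GSK219 livers, and Cyp1a1, at 9 to 22 counts per liver, both with overlapping groups. The 3 PXR targets (Cyp3a11, Cyp3a13 and Cyp3a25) had none called, with medians of -0.08 and -0.30. Of the 8 pericentral members, 8 were below 0 against TRPV4-KO and 7 against GSK219, with medians of -0.35 and -0.39 and with Cyp2c29 against TRPV4-KO as the 1 call. Of the 11 tested members listed as acting on arachidonate or eicosanoids, none was called by edgeR in either comparison, while DESeq2 called Cyp4a10 lower in WT than in GSK219 livers. The list leaves out Cyp2c29, itself an epoxygenase and the member called by edgeR against TRPV4-KO. The 11 had medians of -0.28 and -0.34.

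Of the genes that serve the P450 system, 14 for electron transfer and heme supply were tested and none was called by edgeR in the 3 comparisons, with medians of -0.27 against TRPV4-KO and -0.23 against GSK219. At an unadjusted p under 0.05, 1 was higher in WT than with TRPV4-KO and 6 were lower, where 9.5% and 7.61% of all genes were. Against GSK219 the counts were 1 and 0, where 5.87% and 2.34% of all genes were, and with Xist reads 0 were higher and 1 lower, where 13.4% and 8.73% were. Alas1, the rate-limiting enzyme of heme synthesis, had 3791 and 3451 counts in WT, 31263, 11540 and 5600 in TRPV4-KO and 5219, 5208 and 6284 in GSK219 livers. WT was the lowest group and TRPV4-KO livers spread widely (log2 fold change -2.22, adjusted p = 0.186). Por had 7272 and 5898 counts in WT, 16857, 14232 and 10527 in TRPV4-KO and 7812, 5316 and 7517 in GSK219 livers, so that TRPV4-KO lay above both other groups without overlap (-1.13, adjusted p = 0.131 for WT minus TRPV4-KO).

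Of 24 regulators tested, none was called by edgeR in the 3 comparisons, with medians of -0.30 and -0.16, and 5 were lower and 0 higher in WT than with TRPV4-KO at an unadjusted p under 0.05, where 7.61% and 9.5% of all genes were. Against GSK219, 2 were lower and 0 higher in this way, where 2.34% and 5.87% of all genes were. With Xist reads 4 were lower and 4 higher, where 8.73% and 13.4% of all genes were. Nr1i3, which encodes CAR, had 575 and 313 counts in WT, 1209, 980 and 679 in TRPV4-KO and 717, 544 and 766 in GSK219 livers. TRPV4-KO lay above WT without overlap (log2 fold change -1.15, adjusted p = 0.183), and GSK219 overlapped with WT. Cux2, a growth hormone-dependent repressor of male-biased genes, had 404 to 1640 counts in the livers with Xist reads and 12 to 189 in the others (log2 fold change 4.07, adjusted p = 0.054).

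Lists of acute phase genes and of markers of other cell types are given beside these values. Of the 12 acute phase genes all 12 were fitted higher in WT than in TRPV4-KO, 2 of them past the threshold (Hpx and Saa2). Of all genes, 0.152% were called higher in this comparison. The summed level of the 12 was 45098 to 61086 CPM in WT, 20653 to 26110 in TRPV4-KO and 22929.9 to 27358 in GSK219 livers. Of 10 neutrophil genes 9 were tested and all 9 were fitted higher in WT than in TRPV4-KO, with 3 past the threshold (Cd177, Cxcr2 and S100a8), at sums of 55.4 to 67 CPM in WT, 1.58 to 7.18 in TRPV4-KO and 2.58 to 6.46 in GSK219 livers. The defining marker Ly6g had 0 to 3 counts per liver and was not tested. The 8 macrophage genes summed to 1411 to 1576 CPM in WT, 376 to 851 in TRPV4-KO and 403 to 969 in GSK219 livers, and the 8 stellate and fibroblast genes to 427 to 602, 154 to 346 and 218 to 349 CPM, with all 8 of each list fitted above 0 against TRPV4-KO and none past the threshold. With the kind of reads as a term, 6 acute phase, 8 neutrophil, 4 macrophage, 1 epithelial and 0 stellate and fibroblast genes were called higher in WT than with TRPV4-KO. Of all genes, 1.67% were called higher in that fit. Endothelial genes (540.1 to 619, 352 to 549 and 409.8 to 578 CPM), ductal and tumor epithelial genes (56.5 to 93.3, 48.6 to 53.7 and 34.1 to 57.9) and lymphocyte genes (4.2 to 9.03, 6.51 to 15.5 and 4.53 to 6.46) had none called in the comparisons with WT by the groups alone. The part of these cells and of the acute phase in the values of Cyp2c29, Cyp1b1, Cyp4f18 and the other members was not tested.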

How the data were processed

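RNA was extracted from 8 mouse livers and sequenced as bulk RNA-Seq. The submitters' processing notes name HISAT2 2.0.5 and Trim Galore, and the files follow GRCm38. The authors deposited unnormalized read counts per gene, with gene length and biotype, and the tool that counted reads is not given in the sources used here, so the treatment of reads shared by near-identical genes is unknown. The table holds 7 further columns that match no sample and were not used, and the table of pancreatic stellate cells was not used.

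Counts were fitted with edgeR 4.0.16 (R 4.3.3; TMM, filterByExpr with a minimum count of 10, robust quasi-likelihood) over all 8 livers, 15118 genes tested, and p-values were adjusted by Benjamini-Hochberg over all of them. A gene was called at an adjusted p under 0.05 and an absolute log2 fold change over 1. Fold changes are WT minus the other group, or livers with Xist reads minus livers with Y-linked reads with group as a term. RPKM used the deposited gene length and the TMM-scaled library. The biological coefficient of variation was 28.3%. The fit was tested on simulated data. Per the labels, replicates are biological replicates. Intervals and floors cover counting error only, at a confidence level of 95%. Named genes were the markers, the 8 members with the highest mean level, members called (at most 12 per comparison by size), the 4 members per direction with the smallest p, and called or leading genes of each list; other genes named were chosen after their values were seen. The members and lists were chosen with earlier results of these data known. Promoters came from RefSeq (GRCm38.p6). Alternatives were DESeq2 1.42.0, RLE factors, no filter, a replicate block, a fit of the compared groups alone, the kind of reads as a term, no fold threshold and each liver left out.

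The livers were not treated as paired by the replicate numbers of the labels. The deviations of same-numbered livers correlated at a mean of 0.144 (-0.536 to 0.612, 7 pairs). Those of livers with the same kind of sex-chromosome reads correlated at 0.468 (0.165 to 0.657, 11 pairs). The same-numbered pairs of different kinds, WT 1 with TRPV4-KO 1 and with GSK219 1, stood at -0.457 and -0.536. All other same-numbered pairs were of the same kind, at 0.165 to 0.612. Pairing by number could thus not be told apart from the kind of reads.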

Additional observations from a re-analysis of the deposited data

How the results depend on the processing

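Of the counts of members called, 72 alternative values stayed close to the reported one and 20 moved, and of the named genes' fold changes 466 kept direction and side of the threshold, 25 lost the call, 5 gained it and 1 reversed. Members higher in WT than in TRPV4-KO numbered 1 with DESeq2, 3 with the replicate block, 1 with the kind of reads as a term and 0 to 2 with a liver left out (2 without TRPV4-KO 3). Members lower numbered 2 with DESeq2, 0 with only the 2 groups, 4 with the kind as a term, 2 (Cyp2c37 and Cyp2c38) with only the 5 livers with Y-linked reads, an alternative chosen after seeing the data, and 0 to 1 with a liver left out. Against GSK219, 1 member was lower with DESeq2 and 1 with the kind as a term, and 3 were higher with the replicate block (Cyp2b13, Cyp3a41a and Cyp3a41b, as against TRPV4-KO). Replicate 3 of TRPV4-KO and of GSK219 was the liver with Xist reads, and WT had no replicate 3. The block therefore overlaps with the kind of reads, and its results cannot be told apart from that difference. With the kind as a term, Cyp2b13 was lower in WT than in TRPV4-KO, the opposite direction. In the comparison of kinds, the replicate block left 0 members higher and 1 lower (Cyp2d9), and turned Cyp2e1 to 0.14; without the fold threshold 7 were lower, and with a liver left out 11 to 15 were higher and 4 to 5 lower. Over all genes, those higher and lower in WT than in TRPV4-KO numbered 23 and 17, but 374 and 121 with DESeq2, 351 and 78 with the block, 252 and 73 with the kind as a term, 100 and 40 without the filter, 11 and 9 with only the 2 groups, 195 and 93 with only the livers with Y-linked reads, 573 and 149 without TRPV4-KO 3, 3 and 1 without WT 1, 2 and 1 without WT 2, 8 and 6 without TRPV4-KO 1, 7 and 4 without TRPV4-KO 2, 9 and 9 without GSK219 1, and 13 and 8 without GSK219 2. Against GSK219 they numbered 0 and 0, but 64 and 10 with DESeq2, 9 and 0 with the block and 7 and 1 without the filter. Between kinds they numbered 159 and 130, but 1 and 9 with the block, 97 and 105 without the group term, 301 and 223 without the fold threshold, 75 and 84 without TRPV4-KO 3, 99 and 103 without TRPV4-KO 2, and 247 and 156 without GSK219 2. The cause was not tested. With 2 WT livers, one of each kind, 1 liver decides many WT values, and counts under about 10 limit the lowest members.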

Other observations

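Among the 5 livers with Y-linked reads, TRPV4-KO 1 and GSK219 2 stood apart in genes chosen after their values were seen. Bcl6, a repressor that is male-biased in mouse liver, had 250 counts in TRPV4-KO 1 and 243 in GSK219 2, while WT 2 had 1617, TRPV4-KO 2 had 1629 and GSK219 1 had 1498. Onecut1, a hepatocyte transcription factor, had 1035 and 561 counts in these 2 livers and 93 to 167 in the other 6. Cux2 had 189 and 55 counts there and 12 to 17 in the other 3 livers with Y-linked reads, and Cyp2b9 had 107 and 41 against 0 to 12. Cyp2d9 was somewhat lower in these 2 livers, at 500.4 and 449 RPKM, against 509.7 to 598 in the other 3. The 4 members listed as male-biased summed to 1579 and 1353 CPM in them and to 1703 to 1916 in the other 3.

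Besides the 80 members, 30 pseudogene or antisense entries bear names of these families, and 16 of them had counts. Of these, 3 had over 100 counts in every liver, namely Cyp2d37-ps with 2335 to 2902, Cyp2d38-ps with 623 to 947 and Cyp2d36-ps with 125 to 411. Cyp2b27-ps had 12, 25 and 6 counts in the livers with Xist reads of WT, TRPV4-KO and GSK219 and none elsewhere, and Cyp3a63-ps had 8, 25 and 28 there and none elsewhere. Cyp2c53-ps had 4 to 15 counts in each liver with Y-linked reads and none in the others. Reads shared with the parent genes cannot be told apart at this level.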
